A study of Mus musculus with 12 samples.

Results

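Corticosterone (CORT), the main glucocorticoid of mice, acts through a small set of proteins that carry it, convert it, bind it and fold its receptor. The 10 genes described here encode 2 receptors, 2 dehydrogenases, 3 chaperones, 1 plasma carrier and 2 reductases of this set. They were chosen by name as the rows for Nr3c1, Nr3c2, Hsd11b1, Hsd11b2, Fkbp5, Fkbp4, Ptges3, Serpina6, Akr1d1 and Srd5a1 among the 55416 genes that each table lists. All 10 were found once in the liver table and once in the intestine table. RNA-seq was done on liver and intestine of male C57BL6/J mice that were 8 weeks old at the start. CORT-treated mice received 40 mg/kg CORT every day under the skin for 8 weeks, and Veh mice received the vehicle alone. Each tissue had 3 CORT-treated and 3 Veh samples, 12 libraries in all, and the study's methods name the piece of intestine as duodenum.

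In the classical account, CORT enters a cell and meets its receptors in the cytoplasm, where Hsp90 and its partners hold them ready to bind the hormone. The glucocorticoid receptor (Nr3c1) and the mineralocorticoid receptor (Nr3c2) both bind CORT. The enzyme encoded by Hsd11b1 regenerates CORT from its inactive keto form and is known for its activity in liver, whereas that encoded by Hsd11b2 inactivates CORT and shields the mineralocorticoid receptor in aldosterone target tissues. Fkbp5 is itself a target of the glucocorticoid receptor, and its protein lowers the receptor's affinity for hormone, while the protein of Fkbp4 favours its transport to the nucleus.

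Values are TPM, relative transcript abundances that divide reads by transcript length, so that levels can be compared between genes within a library. Differences were tested with limma on the log2(TPM + 1) scale for genes that averaged 1 TPM or more in the CORT-treated or the Veh group. A gene is called changed below at an adjusted p of 0.05 or less with a fold change over 1.5. On this scale the change of low genes is understated. The deposited TPM sum to between 983327 and 997319 per library, and read depth cannot be recovered from them. Albumin (Alb) was between 32823 and 59476 TPM in the livers and at most 0.39 TPM in the duodenum, whereas Sis, the sucrase-isomaltase of the brush border, was at most 0.01 TPM in the livers and at least 599.5 TPM in the duodenum. Fabp6, an ileal marker, was at most 0.73 TPM in the duodenum. Duodenum Veh 2 and Veh 3 stood apart from the other libraries. A list of 14 pancreatic acinar genes summed to 30386 and 25770 TPM there. It summed to 165 TPM in Veh 1 and 128 to 332 TPM in the CORT-treated duodenum. For Fkbp5, Hsd11b2 and Nr3c2, log2 differences in the duodenum are therefore also given without Veh 2 and Veh 3. For the other genes named as called there, the range is given. Adrenal cortex markers (5 genes) were under 1 TPM in every library.

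Of the 10 genes, 7 had a promoter entry in RefSeq, on build GRCm38.p6, whereas the tables were made on GRCm39. The entries of Fkbp5 and Nr3c2, the genes that were called changed in both tissues, are shown because they moved in opposite directions. Each sequence is the 250 bases before the start of the gene, written 5′ to 3′ along the gene's own strand, and capitals mark GC boxes (GGGCGG, or CCGCCC on the other strand). Fkbp5 lies on the minus strand at chr17:28486150-28486399 and Nr3c2 on the plus strand at chr8:76902080-76902329.
Fkbp5: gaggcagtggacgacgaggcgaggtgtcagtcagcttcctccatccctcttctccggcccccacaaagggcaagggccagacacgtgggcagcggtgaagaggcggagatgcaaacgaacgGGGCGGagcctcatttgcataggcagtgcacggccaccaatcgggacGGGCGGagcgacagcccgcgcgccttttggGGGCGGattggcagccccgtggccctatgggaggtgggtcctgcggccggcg
Nr3c2: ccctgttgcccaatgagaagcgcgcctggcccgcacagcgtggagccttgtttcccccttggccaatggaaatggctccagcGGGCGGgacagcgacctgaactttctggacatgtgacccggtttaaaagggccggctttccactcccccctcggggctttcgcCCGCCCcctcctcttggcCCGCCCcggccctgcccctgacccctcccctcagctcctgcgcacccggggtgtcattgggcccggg
Both windows were rich in G and C, 68% in Fkbp5 and 68.4% in Nr3c2 against a median of 52.4% over all 32851 promoters, and each held 3 GC boxes. A GC box on either strand was found in 5 of the 7 genes and in 32.7% of all promoters. The windows without one were those of Hsd11b1 and Akr1d1, which also had the lowest GC content, 54.4% and 45.2%. The receptor half-site AGAACA, read on both strands, was in 0 of the 7 windows and in 16.1% of all promoters, and the TATA box TATAAA, also on both strands, in 0 of the 7 and in 12.4%. The windows of Fkbp5 and Nr3c2 thus did not differ in any of these motifs, and the absence of letters from this window says nothing about sites elsewhere. There was no entry for Nr3c1, Hsd11b2 or Serpina6.

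Did treatment change the genes that receive and process the hormone? In the liver, 9 of the 10 genes were tested and 2 were called, Fkbp5 higher and Nr3c2 lower, where 6.92% of all tested genes were called. Nr3c2 passed the filter on low values only through its Veh group. In the duodenum, 8 of the 10 were tested and 3 were called, Fkbp5 and Hsd11b2 higher and Nr3c2 lower, where 2.15% of all tested genes were called. The CORT-treated and Veh values of the called genes did not overlap, and those of every other tested member did, against 32.2% of all genes without overlap in liver and 26.4% in duodenum. Hsd11b2 in the liver and Serpina6 and Akr1d1 in the duodenum were below the filter. The median log2 difference of the tested members was -0.01 in liver and 0.26 in duodenum, and that of all tested genes was 0.08 and -0.01.

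**Figure D1:**
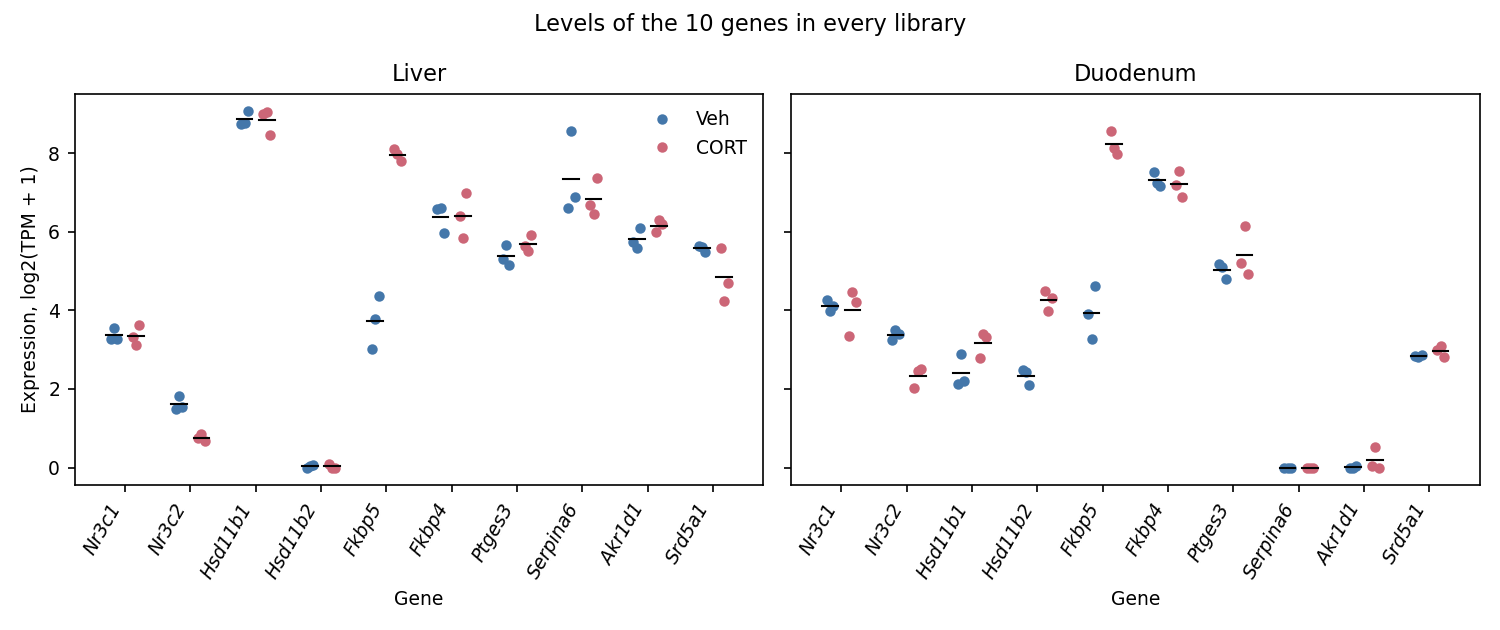
Expression of the 10 genes as log2(TPM + 1) in each of the 12 libraries, liver on the left and duodenum on the right. Points are single libraries and black bars are means of 3. The CORT-treated points of Fkbp5 lie far above the Veh points in both tissues, those of Nr3c2 lie below them, and Hsd11b2 differs between groups in the duodenum while it lies near 0 in liver.

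Nr3c1, the glucocorticoid receptor (ENSMUSG00000024431), was expressed at a low level and was not called in either tissue. Veh livers had 8.67, 10.8 and 8.58 TPM in replicates 1 to 3, and CORT-treated livers 8.98, 7.63 and 11.4 TPM. The highest and the lowest of the 6 values were both from CORT-treated livers. The log2 difference was -0.01 (95% confidence interval -0.42 to 0.40, limma adjusted p = 0.972). In the duodenum, Veh samples had 18.2, 14.9 and 16.2 TPM and CORT-treated samples 9.20, 21.0 and 17.6 TPM. The CORT-treated values thus lay on both sides of the Veh values, and the SD was 6.06 TPM in the CORT-treated group against 1.66 TPM in Veh (n = 3 each). The log2 difference there was -0.11 (95% confidence interval -0.77 to 0.55, limma adjusted p = 0.859). Without CORT 1 it was 0.22.

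Nr3c2, the mineralocorticoid receptor (ENSMUSG00000031618), was lower after treatment in both tissues. Veh livers had 1.81, 2.54 and 1.92 TPM, and CORT-treated livers 0.68, 0.80 and 0.59 TPM. Every treated liver was below 1 TPM and every Veh liver above it. The log2 difference was -0.86 (standard error 0.19, limma adjusted p = 0.0406) and became -1.46 with a pseudocount of 0.1, as this gene lies near the pseudocount. In the duodenum, Veh samples had 8.45, 10.4 and 9.51 TPM and CORT-treated samples 3.06, 4.46 and 4.65 TPM. The groups did not overlap, and the log2 difference was -1.06 (standard error 0.17, limma adjusted p = 0.0336), a fall of 2.08-fold. Duodenum Veh 1, the Veh library with few acinar transcripts, was at 8.45 TPM, above all 3 treated samples. These calls were close to the threshold: in the 6 fits that each left out 1 library, Nr3c2 was called in 0 of 6 in either tissue, with limma adjusted p between 0.0653 and 0.129 in liver and between 0.0557 and 0.131 in duodenum, and log2 differences between -0.93 and -0.76 and between -1.14 and -0.91. The 2 tissues' log2 differences differed by 0.19 (95% confidence interval -0.30 to 0.68). RNA was taken from whole tissue, so fewer cells that express a gene and less RNA per cell cannot be told apart.

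Both receptors bind CORT, and their ratio within a library does not depend on how the library was scaled. This ratio was chosen after the values of both genes were seen. The Veh livers had 4.79, 4.25 and 4.47 TPM of Nr3c1 per TPM of Nr3c2, and the CORT-treated livers 13.2, 9.54 and 19.3. In the duodenum the ratio was 2.15, 1.44 and 1.71 in Veh and 3.01, 4.70 and 3.78 after CORT. The ratio was higher in every treated sample than in any Veh sample of the tissue, by 2.99-fold in liver and 2.17-fold in duodenum between geometric means. Each of these 2 differences had an exact two-sided permutation p of 0.1, the smallest that 3 samples against 3 can give. A ratio shows that the genes changed unequally and not which of them changed. Nr3c2 was already called by itself, so this ratio is no separate result.

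The dehydrogenases showed opposite tissue patterns. Hsd11b1 (ENSMUSG00000016194) was the most abundant of the 10 genes in liver, with 427, 433 and 533 TPM in Veh and 508, 527 and 350 TPM in CORT-treated livers. The groups overlapped, and the log2 difference was -0.02 (95% confidence interval -0.48 to 0.44, limma adjusted p = 0.952). In the duodenum it had 3.35, 6.36 and 3.60 TPM in Veh and 5.88, 9.61 and 9.0 TPM after CORT. Treated sample 1 lay below Veh 2, so the groups overlapped. The log2 difference of 0.77 (standard error 0.26) did not pass the threshold (limma adjusted p = 0.180, unadjusted p = 0.0211). H6pd, which supplies the cofactor for the reductase activity of this enzyme, was not called in either tissue (log2 differences of 0.37 and 0.47, limma adjusted p = 0.129 and 0.140). Its groups overlapped in neither, as was so for 32.2% of all tested genes in liver and 26.4% in duodenum. H6pd is named after its values were seen.

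Hsd11b2 (ENSMUSG00000031891), the enzyme that inactivates CORT, rose in the duodenum. Veh samples had 4.60, 4.36 and 3.28 TPM and CORT-treated samples 21.4, 14.8 and 18.9 TPM. The lowest treated sample was more than 3 times the highest Veh sample. The log2 difference was 1.93 (standard error 0.18, limma adjusted p = 0.00621), 3.80-fold on the log2(TPM + 1) scale, and the gene was called in 6 of 6 fits that left out 1 library. In liver it was listed at 0, 0.03 and 0.05 TPM in Veh and 0.06, 0 and 0 TPM after CORT, below the filter. The difference between the tissues in the response was -1.94 on the log2 scale (liver minus duodenum, limma adjusted p = 0.00115), and Hsd11b2 was the only one of the 10 genes called in that test, in which 3.61% of all tested genes were called. With the liver values near 0, this number is in effect the change in the duodenum.

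Within the duodenum, where both enzymes were detected, the Veh samples had 0.728, 1.46 and 1.10 TPM of Hsd11b1 per TPM of Hsd11b2. The CORT-treated samples had 0.275, 0.651 and 0.475. The treated ratios were all below the Veh ratios, by 2.39-fold between geometric means (exact two-sided permutation p = 0.1). The mean level of Hsd11b1 itself was higher in the treated samples, 8.16 ± 2.00 TPM against 4.44 ± 1.67 TPM (SD, n = 3 each). No ratio was formed in liver, where Hsd11b2 was listed at 0 in 3 of 6 libraries.

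**Figure D2:**
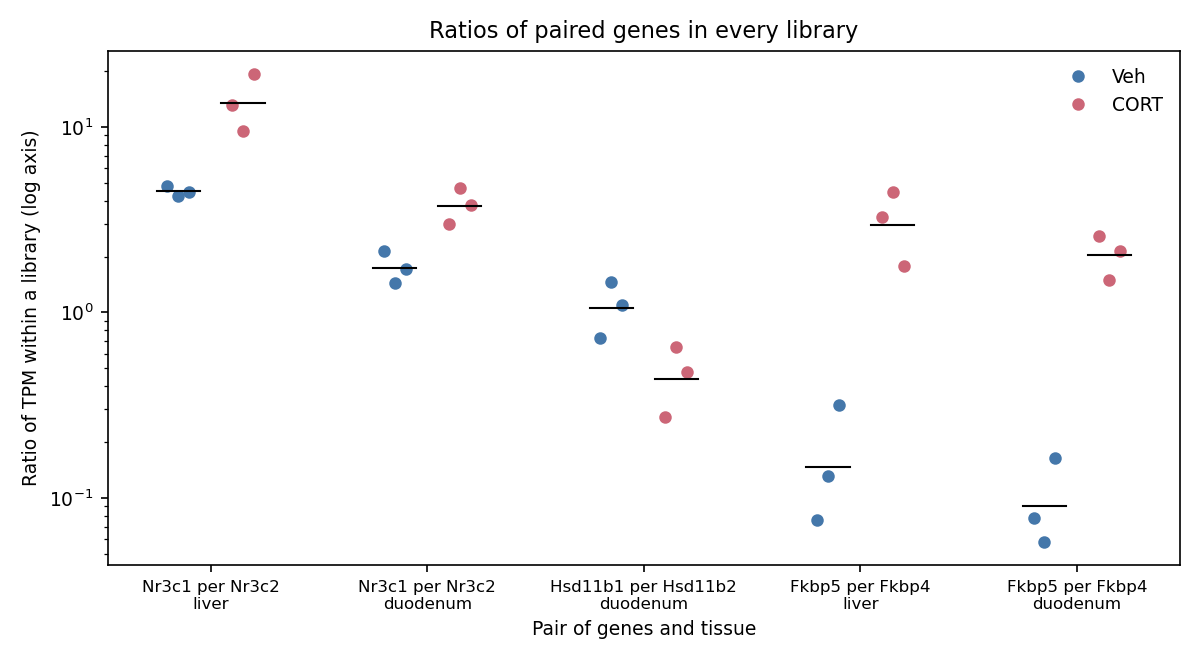
Ratio of the TPM of paired genes within each library, on a log axis, for Veh and CORT-treated samples. Points are libraries and bars are geometric means of 3. The pairs were chosen after the values were seen, and each includes a called gene, so the ratios are no separate result. In each of the 5 pairs shown the treated and Veh libraries do not overlap, with treated ratios higher for Nr3c1 per Nr3c2 and Fkbp5 per Fkbp4 and lower for Hsd11b1 per Hsd11b2.

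Among the chaperones, Fkbp5 (ENSMUSG00000024222) had the largest change of the 10 genes. Veh livers had 7.14, 12.7 and 19.5 TPM and CORT-treated livers 273, 249 and 221 TPM. The duodenum had 14.0, 8.68 and 23.3 TPM in Veh and 379, 281 and 252 TPM after CORT. In both tissues the lowest treated sample was over 10 times the highest Veh sample, and the Veh samples themselves spread over more than 2-fold. The log2 difference was 4.23 in liver (standard error 0.32, limma adjusted p = 0.00178) and 4.30 in duodenum (standard error 0.34, limma adjusted p = 0.00450). These effects differed by -0.07 on the log2 scale, with a 95% confidence interval from -1.18 to 1.05, so that a difference of 2-fold either way lay within it. The call held in 6 of 6 fits without 1 library in each tissue.

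Fkbp4 (ENSMUSG00000030357), its close relative in the receptor complex, was not called. It had 93.9, 96.6 and 61.5 TPM in Veh livers and 83.8, 55.7 and 125 TPM in CORT-treated livers, with a log2 difference of 0.02 (95% confidence interval -0.72 to 0.76, limma adjusted p = 0.974). In the duodenum it had 181, 149 and 142 TPM in Veh and 146, 187 and 118 TPM after CORT, with a log2 difference of -0.09 (95% confidence interval -0.55 to 0.37, limma adjusted p = 0.835). The treated values spanned the Veh values in both tissues. The order of the relatives therefore turned over. Fkbp5 was at 0.0760, 0.132 and 0.317 TPM per TPM of Fkbp4 in Veh livers and at 3.26, 4.47 and 1.77 in treated livers, and at 0.0775, 0.0581 and 0.164 in Veh duodenum and 2.60, 1.505 and 2.14 in treated duodenum. The ratio was 20.1-fold higher in liver and 22.5-fold higher in duodenum (exact two-sided permutation p = 0.1 each). In all 6 Veh libraries Fkbp4 exceeded Fkbp5 and in all 6 treated libraries Fkbp5 exceeded Fkbp4.

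Ptges3 (ENSMUSG00000071072), the co-chaperone p23 that stabilises Hsp90 complexes with bound receptor, was also not called. Livers had 38.8, 49.4 and 34.8 TPM in Veh and 48.5, 44.9 and 59.0 TPM after CORT (log2 difference 0.31, limma adjusted p = 0.314). The duodenum had 35.3, 33.3 and 27.0 TPM in Veh and 35.6, 69.3 and 29.2 TPM after CORT (log2 difference 0.39, limma adjusted p = 0.526). The groups overlapped in both tissues, and without duodenum CORT 2 the difference there was 0.03.

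The highest Fkbp4 and Ptges3 values of each tissue came from the same library, CORT 3 in liver and CORT 2 in duodenum. The other chaperones of steroid receptors, a list of 19 genes with Hsp90, Hsp70 and their partners, also had their highest sums there. The sum was 3673 TPM in liver CORT 3 against 1482 to 2172 TPM in the other 5 livers, and 4520 TPM in duodenum CORT 2 against 2129 to 2761 TPM in the other 5 duodenum samples. Hsp90aa1, the inducible Hsp90 and chosen here after its values were seen, was at 132 TPM in liver CORT 3 and at 20.0 to 54.8 TPM in the other livers, and at 211 TPM in duodenum CORT 2 and at 37.4 to 63.4 TPM in the others. A single treated library per tissue thus had the most of these chaperone transcripts. In liver without CORT 3 the log2 difference of Fkbp4 was -0.27. Of the 19 listed chaperones, 1 was called in liver, Ppp5c, a phosphatase of the receptor complex (log2 difference 0.65, standard error 0.14, limma adjusted p = 0.0425, called in 1 of 6 fits without 1 library), and 0 in the duodenum, where limma gave 2 of the 19 an unadjusted p under 0.05. The median log2 difference of the list was 0.28 in liver and 0.29 in duodenum.

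Serpina6 (ENSMUSG00000060807), which encodes transcortin, the plasma globulin that carries CORT, was a liver gene. Veh livers had 95.8, 374 and 117 TPM and CORT-treated livers 102, 85.6 and 164 TPM. Veh 2 was more than 2 times as high as any other liver. The log2 difference of -0.51 (95% confidence interval -1.73 to 0.71, limma adjusted p = 0.569) rested on that library and was 0.09 without it. In the duodenum Serpina6 was listed at 0 in all 6 libraries. Of 6 other carriers of steroids and other hormones in plasma, 4 were tested in liver and 2 in duodenum, and 0 were called in either by limma, which gave 0 of them an unadjusted p under 0.05.

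The reductases that clear the hormone's A ring were both higher in liver than in duodenum, and neither was called between CORT-treated and Veh samples. Akr1d1 (ENSMUSG00000038641), the reductase that yields the bent 5-beta steroids of bile acid synthesis, had 51.9, 46.7 and 67.7 TPM in Veh livers and 62.3, 77.1 and 72.2 TPM after CORT. The log2 difference was 0.35 (95% confidence interval -0.05 to 0.76, limma adjusted p = 0.243). In the duodenum it was at most 0.44 TPM in any library. Srd5a1 (ENSMUSG00000021594), a reductase that yields 5-alpha steroids, had 49.0, 48.2 and 43.7 TPM in Veh livers and 46.9, 17.9 and 24.7 TPM after CORT. Treated livers 2 and 3 lay well below the Veh range while treated liver 1 lay within it. The log2 difference was -0.75 (standard error 0.32, limma adjusted p = 0.195, unadjusted p = 0.0508). Without CORT 1 it was -1.12 and was called (limma adjusted p = 0.0435). That was the call in 1 of 6 fits without 1 library, with log2 differences between -1.12 and -0.45 and limma adjusted p up to 0.381. In the duodenum Srd5a1 had 6.09, 6.02 and 6.28 TPM in Veh and 7.01, 7.56 and 6.06 TPM after CORT, a log2 difference of 0.14 (limma adjusted p = 0.582). The difference between the tissues' responses was -0.88 for Srd5a1 and -0.79 for Hsd11b1 on the log2 scale, and neither passed the threshold (limma adjusted p = 0.232 and 0.247).

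**Figure D3:**
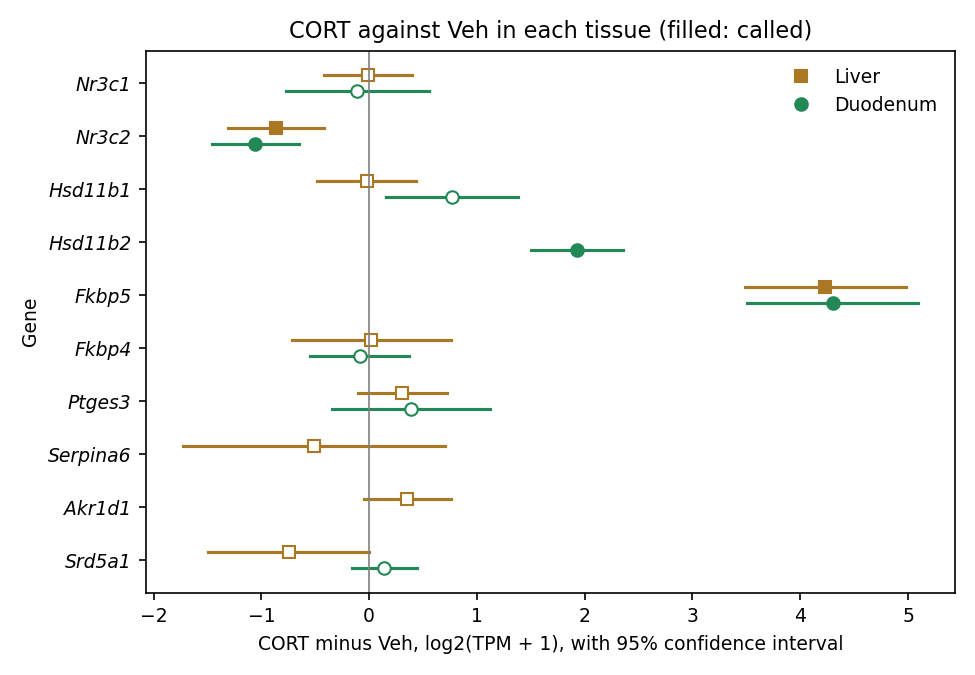
Difference between CORT-treated and Veh samples in log2(TPM + 1) for each gene and tissue, with 95% confidence intervals from limma. Filled symbols passed the threshold. Fkbp5 lies above 4 in both tissues, Nr3c2 near -1 in both, and Hsd11b2 near 2 in the duodenum, while the intervals of the other genes include 0 except that of Hsd11b1 in the duodenum.

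Which of these genes distinguish liver from duodenum in the absence of treatment? Between Veh livers and Veh duodenum, 8 of the 10 genes were called and 8 did not overlap, where 67.4% of all tested genes were called and 77.9% did not overlap. The share among the 10 genes was thus close to that of all genes. Hsd11b1, Serpina6, Akr1d1 and Srd5a1 were higher in liver, with log2 differences of 6.45, 7.34, 5.79 and 2.75, and limma adjusted p of 1.19e-05 or less. Serpina6 and Akr1d1 were at or near 0 in the duodenum, as Hsd11b2 was in liver, so their fitted values depend on the pseudocount. With 0.1 in its place they were 10.7, 9.01 and -5.05. Hsd11b2 and Nr3c2 were higher in duodenum, with log2 differences of -2.30 and -1.76 (limma adjusted p = 1.88e-05 and 4.51e-05).

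The remaining comparisons between tissues depended on scaling. The median of all tested genes was -0.72 between liver and duodenum on the log2 scale. Under median-ratio scaling, in which a factor per library brings the typical gene to the same value in all of them, this median was -0.02. Nr3c1 was -0.75 as deposited (called) and 0.01 after that scaling (not called), and Fkbp4 was -0.92 (called) and -0.11 (not called). Ptges3 was 0.35 as deposited (not called) and 1.15 after scaling (called, limma adjusted p = 2.06e-04). Fkbp5 was called under neither scaling, with values of -0.21 and 0.55. Relative to the median gene, then, Nr3c1 and Fkbp4 did not pass the test between tissues, whereas the 6 genes of the paragraph above were called with the same direction under both scalings.

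**Figure D4:**
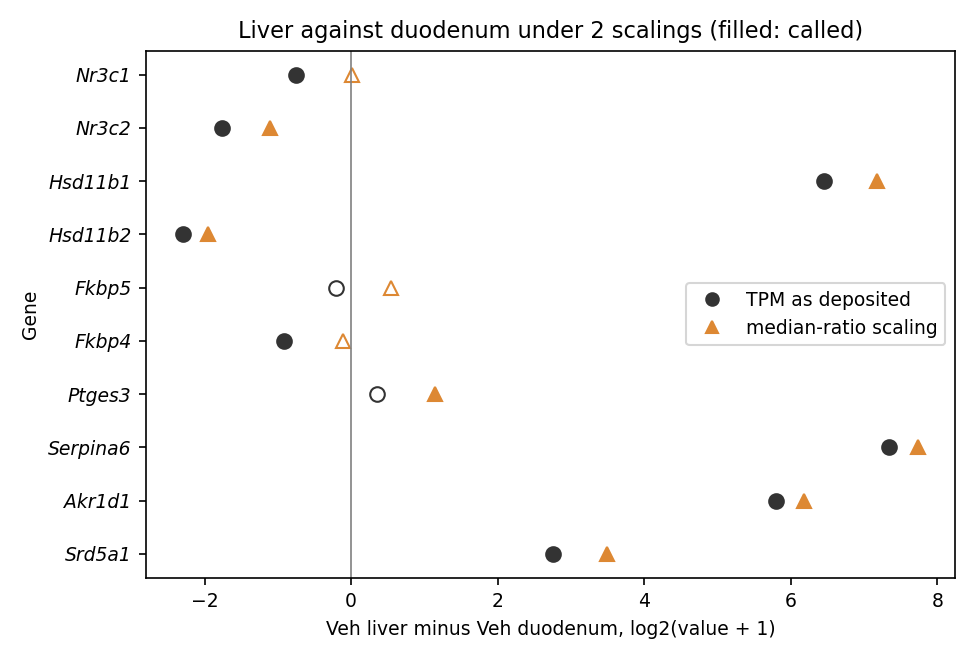
Difference between Veh liver and Veh duodenum in log2(value + 1) for the 10 genes, with TPM as deposited (circles) and after median-ratio scaling (triangles). Filled symbols passed the threshold. Scaling moves every gene to the right, which takes Nr3c1 from -0.75 to 0.01 and Fkbp4 from -0.92 to -0.11, while Hsd11b1, Serpina6, Akr1d1 and Srd5a1 stay above 2 and Hsd11b2 and Nr3c2 below -1.

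In order of level, the Veh livers held Hsd11b1 (464 ± 59.7 TPM, SD, n = 3) above Serpina6 (195 ± 155 TPM), Fkbp4 (84.0 ± 19.5 TPM), Akr1d1 (55.4 ± 10.9 TPM), Srd5a1 (47.0 ± 2.87 TPM), Ptges3 (41.0 ± 7.53 TPM), Fkbp5 (13.1 ± 6.19 TPM), Nr3c1 (9.35 ± 1.26 TPM), Nr3c2 (2.09 ± 0.394 TPM) and Hsd11b2. From Serpina6 to Ptges3 each gene overlapped its neighbour, as did Fkbp5 and Nr3c1. In the treated livers Fkbp5 (248 ± 26.1 TPM) moved from the seventh to the second place. The Veh duodenum held Fkbp4 (158 ± 20.7 TPM) above Ptges3 (31.8 ± 4.33 TPM), Nr3c1 (16.4 ± 1.66 TPM), Fkbp5 (15.3 ± 7.41 TPM), Nr3c2 (9.44 ± 0.952 TPM), Srd5a1 (6.13 ± 0.135 TPM), Hsd11b1 (4.44 ± 1.67 TPM) and Hsd11b2 (4.08 ± 0.703 TPM). Neighbours overlapped from Nr3c1 to Nr3c2 and from Srd5a1 to Hsd11b2. In the treated duodenum Fkbp5 (304 ± 66.7 TPM) came to the top and Hsd11b2 (18.4 ± 3.36 TPM) to the fourth place, overlapping Nr3c1, whereas Nr3c2 (4.06 ± 0.868 TPM) lay below Srd5a1.

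The genes around these 10 were described by lists. Of 12 genes known to be induced by glucocorticoids, all 12 were tested in liver, where 6 were called higher and 0 lower, and 11 in duodenum, where 3 were called higher and 0 lower. Zbtb16, a zinc finger repressor, was called in both, with log2 differences of 2.74 and 2.94 (limma adjusted p = 0.00597 and 0.00621). In the duodenum it passed the filter only through its CORT-treated group, and its log2 difference was 4.49 with a pseudocount of 0.1. The metallothioneins Mt1 and Mt2 rose in liver by 3.23 and 3.28 (limma adjusted p = 0.00702 and 0.0342), as did the kinase Sgk1 by 1.18 (limma adjusted p = 0.0388), and Mt2 and Sgk1 were each called in 1 of 6 fits without 1 library. In the duodenum Pdk4, a kinase that restrains pyruvate oxidation, rose by 3.03 and Tsc22d3, which encodes the glucocorticoid-induced leucine zipper, by 2.01 (limma adjusted p = 0.00809 and 0.0185), the latter called in 3 of 6 such fits. Genes are named where called: Pdk4 and Tsc22d3 were also higher in treated livers, by 1.06 and 1.92 (limma adjusted p = 0.0833 and 0.0623). Mean Mt1, Mt2 and Sgk1 in duodenum were 345, 104 and 103 TPM in Veh and 856, 393 and 511 TPM after CORT, without a call. In the test of the difference between tissues 1 of the 12 was called. All 12 tested genes in liver and all 11 in duodenum had a positive log2 difference, with medians of 1.35 and 1.495.

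Of 15 coregulators of the receptors, 2 were called higher in liver. Med1 and Ep300, which are coactivators, had log2 differences of 0.75 and 0.70 (limma adjusted p = 0.0288 and 0.0342). Each of these calls held in 1 of 6 fits without 1 library. In the duodenum 0 of 15 were called, and limma gave 2 of them an unadjusted p under 0.05.

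Of the other steroid reductases and dehydrogenases, 22 were tested in liver, where 5 fell and 0 rose. Hsd3b5, a male-biased member of the Hsd3b family, had 181, 48.6 and 135 TPM in Veh livers and 5.41, 0.36 and 1.22 TPM after CORT, a log2 difference of -5.32 (limma adjusted p = 0.00774). Hsd3b3 fell by 1.14, Akr1c14 by 1.00 and Hsd17b6 by 1.69 (limma adjusted p = 0.00907, 0.0118 and 0.0178), called in 6, 5 and 4 of 6 fits without 1 library. In the duodenum 19 were tested, 2 rose and 1 fell. Hsd3b3 went the other way there, at 18.0, 22.1 and 22.0 TPM in Veh and 45.5, 34.7 and 51.8 TPM after CORT, a log2 difference of 1.04 (limma adjusted p = 0.0388, called in 1 of 6 fits without 1 library). The difference of its responses between tissues was -2.18 (limma adjusted p = 8.19e-04). Srd5a2, the relative of Srd5a1, rose by 1.33 in duodenum and Hsd17b2, which inactivates sex steroids, fell by 1.63 (limma adjusted p = 0.0185 and 0.0291), and these calls held in 2 and 1 of 6 such fits. Srd5a2 passed the filter only through its CORT-treated group, with means of 3.31 TPM there and 0.72 TPM in Veh. Hsd3b, Akr1c, Cyp3a and Ugt2b genes have close relatives, so the split of reads among relatives is uncertain.

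Conjugation and efflux genes of steroids held the largest change among the lists. In liver 12 were tested, 4 rose and 1 fell. Sult1e1, the estrogen sulfotransferase, had 0.75, 0.33 and 0.12 TPM in Veh livers and 44.5, 167 and 140 TPM after CORT, a log2 difference of 6.22 (limma adjusted p = 0.00187), and passed the filter only through its CORT-treated group. Cyp3a11, a hydroxylase of steroids and drugs, rose in both tissues, by 1.59 in liver and 2.34 in duodenum (limma adjusted p = 0.00693 and 0.00789). Cyp3a25 rose in liver by 0.80 and Ugt2b35, a glucuronosyltransferase, fell by 1.09 (limma adjusted p = 0.0232 and 0.00468), called in 1 and 6 of 6 fits without 1 library. In the duodenum 8 were tested and 2 rose, Cyp3a11 and Cyp3a13, the latter by 0.80 (limma adjusted p = 0.0397) and called in 0 of 6 such fits.

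Of 15 genes of steroid synthesis and its regulators, 7 were tested in liver and 6 in duodenum, and 2 rose and 0 fell in each. Por, the reductase that supplies electrons to cytochromes P450, rose in both, by 1.75 in liver and 1.26 in duodenum (limma adjusted p = 0.00702 and 0.0189), called in 6 and 2 of 6 fits without 1 library. Cyp17a1 rose in liver by 2.43 (limma adjusted p = 0.0443), and Nr0b2, a repressor of bile acid synthesis, rose in duodenum by 1.33 (limma adjusted p = 0.0253), called in 1 and 3 of 6 such fits. Genes of aldosterone-responsive sodium transport were few. Of 9 listed, 4 were tested in liver, where the ubiquitin ligase Nedd4l rose by 1.01 and the sodium channel subunit Scnn1a fell by 0.66 (limma adjusted p = 0.0183 and 0.0445), called in 3 and 0 of 6 such fits. In the duodenum 6 were tested and 0 were called, limma giving 3 of them an unadjusted p under 0.05, and the other channel subunits Scnn1b and Scnn1g were at most 0.05 TPM in any library.

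**Figure D5:**
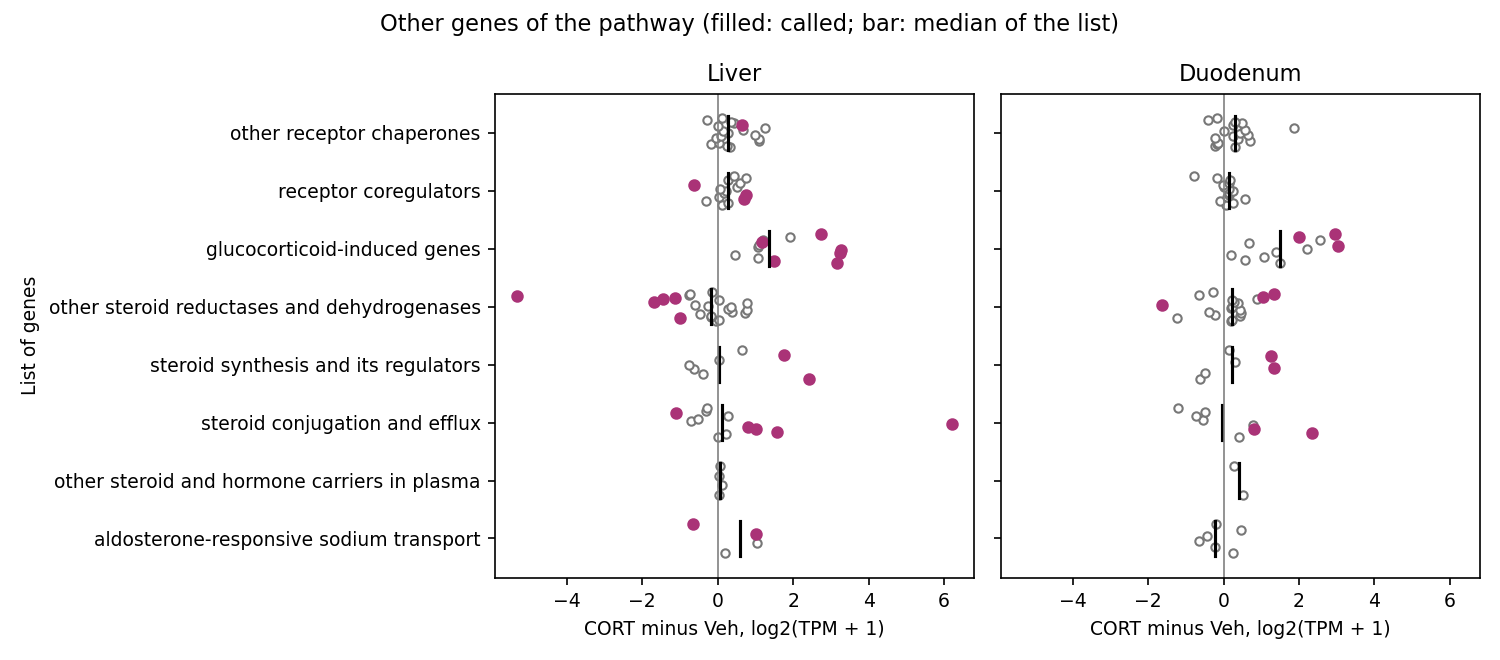
Difference between CORT-treated and Veh samples in log2(TPM + 1) for the other genes of the pathway, by list, in liver (left) and duodenum (right). Each point is a tested gene, filled where called, and black bars are medians. The list of glucocorticoid-induced genes lies to the right of 0 in both tissues (medians 1.35 and 1.495), whereas the single far points are Hsd3b5 at -5.32 and Sult1e1 at 6.22 in liver.

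Genes whose pattern over the 12 libraries was nearest to that of Fkbp5 and Nr3c1 were found among 10499 genes, by the root mean square difference in log2(TPM + 1) after the tissue's Veh mean was subtracted. For Fkbp5 these were Acot1, an acyl-CoA thioesterase, Eif4ebp3, Gm15889, Zbtb16 and Rab30, at distances of 0.95 to 1.15. All 5 were higher after treatment on average, by between 2.28 and 3.30 in liver and between 2.94 and 4.27 in duodenum on the log2 scale, so Fkbp5 itself, at 4.23 and 4.30, was above each of them in both tissues. For Nr3c1 they were Cyld, Pbrm1, Fcho2, Lgr4 and Tbc1d19, at distances of 0.14 to 0.16. Their log2 differences lay between -0.10 and 0.13 in liver and between -0.12 and 0.01 in duodenum. For both members, log2 differences like those of the member follow from the choice by nearness and are no separate result.

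Summed cell type markers were compared between the groups as well. The 8 enterocyte markers summed to 42723 to 46765 TPM in treated samples and 24485 to 36500 TPM in Veh, without overlap, although limma called 0 of the 8 and gave 3 of them an unadjusted p under 0.05. Apoa4, Fabp1 and Fabp2, which handle lipid, carried this sum and did not overlap between groups, whereas the other 5 overlapped, and 4 of the 8 had a positive and 4 a negative log2 difference. Of all tested duodenum genes, 26.4% did not overlap. The sum of 6 smooth muscle markers was 298 to 484 TPM in treated and 451 to 902 TPM in Veh samples, and that of 8 leukocyte markers was 104 to 216 and 122 to 190 TPM, both with overlap. The 5 adipocyte markers summed to 221 to 318 TPM in treated and 141 to 155 TPM in Veh samples, nearly all of it Cidec, a lipid droplet gene, while Adipoq, which defines adipocytes, was at most 3.02 TPM. The 8 hepatocyte markers summed to 16001 to 21879 TPM in treated and 8589 to 12587 TPM in Veh duodenum, nearly all of it Apoa1, which enterocytes also express, with Alb near 0 as given above. In liver the leukocyte sum was 22.8 to 57.7 TPM in treated and 35.8 to 82.0 TPM in Veh samples, with overlap, and most of it was Lyz2. The lymphocyte markers Cd79a, Cd79b, Ms4a1 and Cd3g were at most 0.23 TPM in treated and between 0.12 and 2.90 TPM in Veh livers. Each was without overlap, as were 32.2% of all tested liver genes, and Ms4a1 and Cd3g were below the filter. Cd3e, another lymphocyte marker, overlapped (0.02 to 0.22 TPM in treated, 0.14 to 0.51 TPM in Veh), as did Ptprc, Itgam and Lyz2. Of the 3 leukocyte markers tested in liver, limma called 0 and gave 2 an unadjusted p under 0.05. The part of these in the changes of Hsd11b2 and Nr3c2 was not tested. With 15 acinar genes removed, the 14 summed above and Zg16, Fkbp5, Hsd11b2 and Nr3c2 were still called (log2 differences 4.28, 1.91 and -1.08). This setting leaves any other acinar RNA in place. Without duodenum Veh 2 and Veh 3, a setting chosen after seeing the data that leaves 1 Veh sample, the log2 differences were 4.32, 1.78 and -0.92, and none of the 3 was called (limma adjusted p = 0.0566, 0.184 and 0.431), with 10 genes called in all. Hsd11b2 in Veh 1, at 4.60 TPM, and Fkbp5 there, at 14.0 TPM, lay below every treated sample. The other genes named as called in the duodenum kept their direction without Veh 2 and Veh 3. Their log2 differences then lay between 0.65 (Cyp3a13) and 3.19 (Zbtb16), apart from -2.16 for Hsd17b2.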

How the data were processed

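Bulk RNA-seq covered 4 groups of 3 samples (50 mg each of liver or duodenum). The authors used SeqPrep and Sickle for trimming, HISAT2 for alignment, StringTie for assembly and RSEM for quantification. The submitters' processing notes name the build GRCm39, and tool versions are not given in the sources used here. The deposited tables hold 1 TPM value for each gene in each library, so depth is unknown. Precision comes from the spread between samples, which the labels call biological replicates, and part of that spread may be technical. Samples were grouped by their labels, which do not say whether liver and duodenum came from the same animals. From TPM, log2(TPM + 1) was fitted with limma 3.58.1 in R 4.3.3 (lmFit, eBayes with trend), each tissue alone, Veh samples between tissues, and all 12 libraries for the difference of effects. Genes averaging 1 TPM or more in a group were kept and p-values adjusted over all tested genes by the Benjamini-Hochberg method. Scripts were tested on simulated data. Ratios were tested by exact permutation and chosen after the values were seen.

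All 10 members are named. Of each list, the called genes with the 4 smallest adjusted p per tissue are named, and for Fkbp5 and Nr3c1 the 5 nearest genes. Some genes that qualify are not reported here. Members and lists were chosen with earlier results of these data known. Alternatives included no filter, a pseudocount of 0.1, a replicate block, leaving out each library, other thresholds, median-ratio scaling, eBayes without trend, a joint fit and removal of acinar genes.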

Additional observations from a re-analysis of the deposited data

Results flagged for a closer look

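The test of Hsd11b2 between the tissues was called. The log2 change in liver minus that in duodenum was -1.94 in a limma fit of all 12 libraries (adjusted p = 0.00115), with Hsd11b2 at no more than 0.06 TPM in every liver and higher in 3 of 3 treated duodenum samples than in any Veh sample. Hsd11b2 entered this test only through the duodenum, and with the liver near 0 the value restates the change in the duodenum. It was called in 12 of 12 fits that each left out 1 library, with values between -2.08 and -1.82. The enterocyte markers Apoa4, Fabp1 and Fabp2 were also higher in each treated duodenum sample than in any Veh sample. Of all tested duodenum genes, 26.4% did not overlap between the groups. Among the 8 enterocyte markers, limma called 0 and 4 had a negative log2 difference. The part of these markers in the value of Hsd11b2 was not tested.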

How the results depend on the processing

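In liver, 810 genes were called, 283 without a filter on low values, 307 with a replicate block, 1808 by unadjusted p and 1384 with all 12 libraries fitted together, and 247 to 831 without 1 library. Members called there went from 2 to 1 without a filter and with the block, and were 1 to 2 without 1 library, Nr3c2 being the gene lost (adjusted p = 0.0845 and 0.107). In duodenum, 292 genes were called, 52 without a filter, 62 with the replicate block, 1395 by unadjusted p, 743 in the joint fit, 10 without both acinar-rich Veh libraries and 66 to 237 without 1 library. Members called there went from 3 to 0 without both acinar-rich libraries and to 2 in each fit without 1 library, and Nr3c2 was also lost without a filter and with the block (adjusted p = 0.0896 and 0.0687). Between tissues, 9524 genes were called, 9117 to 9720 without 1 library. For the difference of effects, 534 genes were called, 2712 by unadjusted p and 289 to 626 without 1 library, and the members called were 1, 3 by unadjusted p and 1 to 2 without 1 library. The labels do not say whether the same replicate number marks paired samples. Between samples of the same number, correlations of deviations from group means were between -0.12 and 0.07, which cannot decide it. The block left the log2 differences as they were, so a call lost with it is not a weaker effect.

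Of the values that changed sign, 1 was called, Nr3c1 between tissues (-0.75). Median-ratio scaling gave -0.0739 for Fkbp4 in liver, and 0.00625 for Nr3c1 and 0.55 for Fkbp5 between tissues. A pseudocount of 0.1 gave -0.25 for the difference of effects in Nr3c2. Without 1 library the ranges in liver were -0.15 to 0.11 for Nr3c1, -0.13 to 0.16 for Hsd11b1, -0.27 to 0.31 for Fkbp4 and -0.884 to 0.0920 for Serpina6. In duodenum they were -0.34 to 0.22 for Nr3c1 and -0.257 to 0.0733 for Fkbp4. For Fkbp5 they were -0.54 to 0.14 between tissues and -0.42 to 0.26 for the difference of effects. The cause of these moves was not tested. Of the other single-gene results under an alternative, 732 kept their direction and side of the threshold, 155 lost the call and 6 gained it. Depth is unknown, so no detection limit can be given for genes listed at 0.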
